A study of Mus musculus with 64 samples.

Results

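Nr4a1 (Nur77), Nr4a2 (Nurr1) and Nr4a3 (Nor1) are the 3 members of the Nr4a family of orphan nuclear receptors, and their transcripts were measured by bulk RNA sequencing in the hypothalamus and prefrontal cortex (PFC) of mice given psilocybin or saline. The members were the genes of the deposited count table that map to these 3 symbols, 3 of 55401 genes in all, and each was among the 18971 genes with enough reads to be tested. The family was selected on the measured level of Nr4a3, that is, chosen by its fall from 3 h to 4 weeks after injection. Differences between these time points are therefore given for the members as a description, without a test. Differences between psilocybin and saline and between the regions played no part in that choice and were tested.

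Nr4a receptors are transcription factors of the nuclear receptor superfamily for which no physiological ligand is generally agreed, binding as monomers to an element called NBRE or as dimers with each other or with retinoid X receptors. They are immediate early genes: in neurons, calcium and cAMP signals acting through CREB and serum response factor switch them on within minutes and without new protein synthesis. In the brain Nr4a1 is the member best known for responses to stress and neuronal activity, Nr4a2 is also a lasting marker of midbrain dopamine neurons and of claustral and deep cortical neurons, and Nr4a3 is induced by activity together with Nr4a1.

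All mice were male C57BL/6J animals on a chow diet, housed in groups, without any modified allele, and had been accustomed to injection with saline on preceding days. At 10 weeks of age each received psilocybin (3 mg/kg) or isotonic saline once by the intraperitoneal route and was killed in the morning, 3 h or 4 weeks later. Each of the 32 mice gave both regions, so that 8 groups of 8 samples were formed by region, treatment and time. The mice killed at 4 weeks were older at harvest, so time since injection, age and day of harvest cannot be told apart, and each extraction pool held 1 region, so region and pool cannot be told apart. The PFC is named frontal cortex in the sample labels. Whole tissue was sequenced, so fewer expressing cells and less RNA per cell cannot be told apart in any value below.

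Of 64 libraries 62 were kept, with 8061033 to 70361839 reads counted on genes. Those left out, saline hypothalamus replicate 2 at 3 h and psilocybin PFC replicate 3 at 4 weeks, held 211111 and 200066 reads, too few for these genes (4 and 2 reads on Nr4a1). The labelled regions carried their markers: summed cortical excitatory markers lay at 1293 to 1909 CPM (reads scaled to library size) in PFC libraries and at 22.5 to 119 CPM in hypothalamic ones, and summed hypothalamic markers at 1.25 to 23.3 and 397 to 2815 CPM. Markers of striatal neurons, a neighbouring tissue, summed to 119 to 1215 CPM across PFC libraries, a spread that is taken up with Nr4a2 below.

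The genes lie on 3 chromosomes of the mouse genome build GRCm38. Nr4a1 (ENSMUSG00000023034.7) occupies chr15:101254269-101274795 on the plus strand, Nr4a2 (ENSMUSG00000026826.13) chr2:57106830-57124003 on the minus strand and Nr4a3 (ENSMUSG00000028341.9) chr4:48045153-48086445 on the plus strand. Since CREB is the best described activator of the family, the 250 bases before each RefSeq start site (GRCm38.p6) were searched on both strands for the CRE half-site TGACG, and the stretches that hold matches are shown because all 3 genes share this feature. Capitals mark the half-sites, written TGACG on the gene's strand or CGTCA where the match is on the other strand. The stretch of Nr4a1 is chr15:101266603-101266820 (plus strand, an internal start site within the annotated gene span), that of Nr4a2 chr2:57124100-57124213 (minus strand) and that of Nr4a3 chr4:48045064-48045114 (plus strand).
Nr4a1: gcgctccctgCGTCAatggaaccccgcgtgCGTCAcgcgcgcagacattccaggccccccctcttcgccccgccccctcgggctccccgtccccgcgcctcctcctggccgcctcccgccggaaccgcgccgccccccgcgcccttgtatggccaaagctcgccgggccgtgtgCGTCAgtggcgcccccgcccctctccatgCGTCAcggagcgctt
Nr4a2: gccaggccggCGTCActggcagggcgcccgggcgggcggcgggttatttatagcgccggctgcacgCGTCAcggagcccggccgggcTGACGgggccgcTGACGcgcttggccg
Nr4a3: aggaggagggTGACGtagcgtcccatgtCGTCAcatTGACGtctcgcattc

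Each of the promoters held 4 half-sites in those 250 bases, and the fourth of Nr4a3 lies between 147 and 143 bases before the start, outside the stretch shown. That RefSeq start also lies within the annotated gene span, and of its 250 bases only the first 98 precede the annotated exons, so that the fourth half-site is in the transcribed part. At least 1 half-site was present in 17.8% of 32851 RefSeq promoter windows of that length and at least 4 in 0.137%, or 45 promoters. The full element TGACGTCA (1.55% of promoters), the NBRE AAAGGTCA to which the receptors themselves bind (1.34%) and the CArG box of serum response factor (1.47%) were not found in these windows of the 3 genes. The TATA box letters TATAAA occurred once, in Nr4a2 on the opposite strand (12.4% of promoters). A match of letters is a description of the window and does not show that a factor binds there.

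In the PFC, the family was carried by Nr4a1. Per kilobase of transcript, which allows levels of different genes to be compared, Nr4a1 made up 68.2% ± 13.5 (SD, n = 31) of the family's reads in PFC libraries, Nr4a2 18.5% ± 13.8 and Nr4a3 13.4% ± 4.01. In the hypothalamus Nr4a1 and Nr4a2 had near equal shares, 42.1% ± 8.33 and 43.0% ± 7.46 (n = 31), and Nr4a3 had 14.9% ± 3.47. The summed level of the family was 32.4 ± 8.96 CPM per kilobase (SD, n = 8) in PFC of saline mice at 3 h, 31.5 ± 9.65 (n = 8) after psilocybin, and 19.7 ± 6.78 (n = 8) and 17.2 ± 3.53 (n = 7) in the respective 4-week groups. In the hypothalamus the group means of this sum lay between 8.19 and 10.04 CPM per kilobase.

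Nr4a1 transcripts were several-fold more abundant in PFC than in hypothalamus in every group. In saline PFC at 3 h its level ranged from 36.0 to 143 CPM with a median of 87.1, and after psilocybin from 39.2 to 104.9 with a median of 92.4. At 4 weeks the saline PFC libraries lay between 25.5 and 107.8 CPM (median 40.1) and the psilocybin ones between 28.7 and 56.9 (median 33.3). The 3 h libraries thus sat mostly above the 4-week libraries while the ranges of the treatments overlapped at each time. In the hypothalamus the saline libraries reached 11.5 to 19.9 CPM at 3 h (median 13.5) and 9.71 to 21.2 at 4 weeks (median 11.1). The psilocybin libraries there reached 9.61 to 18.5 CPM at 3 h (median 13.0) and 9.18 to 26.7 at 4 weeks (median 11.8). No hypothalamic library reached the level of any PFC library of the same group. By mean level the order ran from saline PFC at 3 h (85.9 ± 32.5 CPM, SD, n = 8) over psilocybin PFC at 3 h (77.2 ± 30.3, n = 8), saline PFC at 4 weeks (46.2 ± 25.8, n = 8) and psilocybin PFC at 4 weeks (38.0 ± 9.88, n = 7) to the 4 hypothalamic groups, with means between 12.2 and 13.7 CPM. Neighbours in that order differed by more than the larger SD of the pair only between psilocybin PFC at 3 h and saline PFC at 4 weeks (1.02 SD) and between the PFC and the hypothalamus (2.46 SD).

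Within the psilocybin PFC group at 3 h, Nr4a1 split into 5 libraries at 87.8 to 104.9 CPM, all of cages 1 to 5, and 3 at 39.2 to 44.0 CPM, all of cages 6 to 8. In saline PFC at 3 h the lowest libraries were also from cages 6 (36.0 CPM) and 7 (56.2 CPM), whereas cage 8 was among the higher ones (93.6 CPM). Cages 5 to 8 shared 1 extraction pool in each region, and cage 5 of that pool was among the high libraries.

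Nr4a3 had the same regional pattern at a lower level. Its PFC libraries lay between 23.3 and 32.7 CPM (median 26.3) in saline mice at 3 h and between 12.5 and 35.5 CPM (median 30.6) after psilocybin. At 4 weeks they lay between 7.42 and 14.7 CPM (median 11.1) and between 9.03 and 18.8 CPM (median 12.5). All 8 saline PFC libraries at 3 h were above all 8 at 4 weeks, and with psilocybin 7 of 8 were above all 7, replicate 7 (12.5 CPM) being within the later range. The share of all genes that separate in this way is not given. Nothing is drawn from the separation, since the family was chosen on the fall of Nr4a3. Hypothalamic Nr4a3 ranged from 7.09 to 11.6 CPM in saline mice (median 9.82) and from 6.76 to 14.2 CPM after psilocybin (median 8.62) at 3 h. At 4 weeks it ranged from 4.50 to 9.42 CPM (median 6.50) and from 4.17 to 8.62 CPM (median 6.27). The times overlapped there in both treatments. By mean level psilocybin PFC at 3 h (28.3 ± 7.49 CPM, SD, n = 8) and saline PFC at 3 h (27.2 ± 3.63, n = 8) were followed by psilocybin (13.0 ± 3.24, n = 7) and saline PFC (11.2 ± 2.47, n = 8) at 4 weeks, then by the hypothalamus at 3 h (9.56 ± 1.49, n = 7, in saline and 9.56 ± 2.49, n = 8, in psilocybin mice) and at 4 weeks (6.46 ± 1.84 and 6.41 ± 1.55, n = 8 each). Between neighbours, the gap was larger than the larger SD only from 3 h to 4 weeks within the PFC (3.92 SD) and within the hypothalamus (1.24 SD).

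Nr4a2 showed no such ordering. In PFC its level ranged from 10.7 to 19.7 CPM (median 12.4) in saline mice and from 7.84 to 29.7 CPM (median 18.7) in psilocybin mice at 3 h. At 4 weeks it ranged from 6.20 to 58.0 CPM (median 11.3) and from 6.61 to 49.1 CPM (median 10.4). The high values at 4 weeks came from saline replicates 6 (58.0 CPM) and 7 (34.7 CPM) and psilocybin replicates 6 (49.1 CPM) and 8 (21.8 CPM), while the other libraries did not exceed 16.8 CPM. In the hypothalamus Nr4a2 ranged from 9.54 to 19.8 CPM (median 15.7) in saline and from 10.4 to 34.0 CPM (median 19.2) in psilocybin mice at 3 h, and from 9.85 to 29.4 (median 14.2) and 9.30 to 20.3 CPM (median 12.5) at 4 weeks. All 8 group means lay between 13.4 and 19.4 CPM and each neighbouring pair differed by less than the larger SD of the pair.

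**Figure D1:**
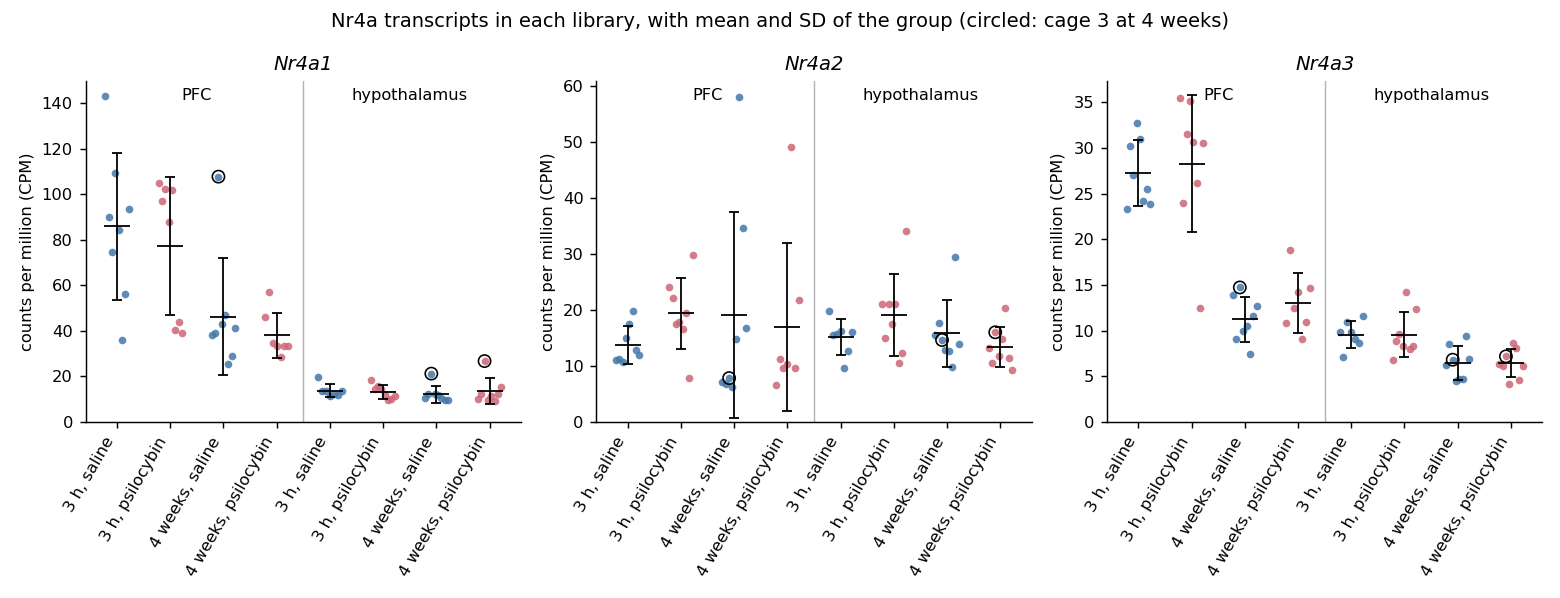
Level of each Nr4a gene (CPM, linear axis from 0) in every library of the 8 groups, with 1 point per library and the group mean ± SD. Nr4a1 and Nr4a3 sit higher in the PFC than in the hypothalamus and, in the PFC, mostly higher at 3 h than at 4 weeks, Nr4a2 does not, and the circled libraries are those of cage 3 at 4 weeks, where Nr4a1 was highest in 3 groups.

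The first comparison asked whether psilocybin changed the family acutely or lastingly. No member passed the test in either region at either time, as the plot of treatment differences shows. In PFC at 3 h the log2 fold change of psilocybin over saline was -0.17 for Nr4a1 (SE 0.193, 95% interval -0.56 to 0.22, adjusted p = 0.903, edgeR quasi-likelihood test with Benjamini-Hochberg adjustment over all genes tested) and 0.0529 for Nr4a3 (SE 0.156, -0.26 to 0.36, adjusted p = 0.98). Nr4a2 had the largest difference, 0.57 (SE 0.310, -0.0561 to 1.19, adjusted p = 0.732), a 1.48-fold higher fitted level, with overlapping groups. With 1 library left out at a time, the differences ranged from -0.34 to -0.0802 for Nr4a1, 0.43 to 0.72 for Nr4a2 and 0.00825 to 0.16 for Nr4a3, the highest values of Nr4a2 and Nr4a3 coming without psilocybin replicate 7, where edgeR called 9 genes in all. Psilocybin replicate 5 had 84.2 CPM of summed wound healing and immune genes against 17.8 to 30.9 CPM in the rest of its group, and without it the differences were -0.34, 0.66 and 0.0138. Across all genes the share called in this comparison was 0.0105%, or 2 genes, with 1371 at an unadjusted p under 0.05, while DESeq2 called 9 and limma with voom quality weights 1232. With voom the members remained uncalled, with log2 fold changes of -0.12 (adjusted p = 0.761) for Nr4a1, 0.60 (0.245) for Nr4a2 and 0.19 (0.405) for Nr4a3.

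At 4 weeks after psilocybin the PFC differences were -0.23 for Nr4a1 (SE 0.203, 95% interval -0.63 to 0.18), -0.13 for Nr4a2 (SE 0.321, -0.78 to 0.51) and 0.22 for Nr4a3 (SE 0.166, -0.11 to 0.56), each with an adjusted p of 1 in edgeR after Benjamini-Hochberg adjustment. The Nr4a1 value rested on saline replicate 3, the highest library, and was -0.00883 without it. The Nr4a2 value turned to 0.28 without saline replicate 6 and was -0.55 without psilocybin replicate 6. The background in this comparison was 0% called by edgeR, with 456 genes at an unadjusted p under 0.05 and 19 called by DESeq2.

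In the hypothalamus at 3 h the log2 fold changes were -0.0983 (SE 0.215, 95% interval -0.53 to 0.33) for Nr4a1, 0.34 (SE 0.319, -0.30 to 0.98) for Nr4a2 and 0.00483 (SE 0.169, -0.33 to 0.34) for Nr4a3, each with an edgeR adjusted p of 1. The Nr4a2 value there fell to 0.15 without psilocybin replicate 8, the highest library. At 4 weeks they were 0.16 (SE 0.210, -0.26 to 0.58, adjusted p = 0.843), -0.24 (SE 0.312, -0.87 to 0.38, adjusted p = 0.835) and -0.00946 (SE 0.170, -0.35 to 0.33, adjusted p = 0.992) in the same fit. edgeR called 0% of all genes in either comparison, with 337 genes at 3 h and 1823 at 4 weeks under an unadjusted p of 0.05, and DESeq2 called 0 and 13. Psilocybin replicate 5 at 4 weeks stood apart, with hypothalamic neuron markers summing to 2815 CPM against 505 to 881 CPM in the rest of its group, and without it the differences were 0.17, -0.27 and -0.0757. Without psilocybin replicate 3, the highest library for Nr4a1, the difference of Nr4a1 turned to -0.0157, and without saline replicate 7, the highest for Nr4a2, that of Nr4a2 was -0.0350. Saline replicate 6 at 4 weeks had the highest sum of wound healing and immune genes, 225 CPM against at most 85.2 CPM in any other library, and without it the 3 differences were 0.16, -0.32 and -0.0734. The intervals were widest for Nr4a2.

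Whether psilocybin acted differently in PFC and hypothalamus was tested by the interaction of treatment and region. The edgeR fit did not pair the regions of a mouse, so its intervals and p-values do not use that pairing. At 3 h the difference of the log2 fold changes (PFC minus hypothalamus) was -0.0714 for Nr4a1 (95% interval -0.65 to 0.51), 0.22 for Nr4a2 (-0.67 to 1.12) and 0.0481 for Nr4a3 (-0.41 to 0.51), each with an edgeR adjusted p of 1. At 4 weeks it was -0.38 (-0.97 to 0.20, adjusted p = 0.773), 0.11 (-0.79 to 1.01, adjusted p = 0.957) and 0.23 (-0.24 to 0.71, adjusted p = 0.800) in the same edgeR fit. The Nr4a1 value at 4 weeks was -0.17 without saline PFC replicate 3. edgeR called 0% of genes for this interaction at 3 h (528 under an unadjusted p of 0.05, 8 called with voom) and 0% at 4 weeks (1269 under an unadjusted p of 0.05, 64 called by DESeq2). Whether the treatment differences changed between 3 h and 4 weeks was not tested.

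The second comparison set the regions against each other. Nr4a1 was higher in PFC than in hypothalamus by 2.59 on the log2 scale (SE 0.208, a 6.03-fold difference, edgeR adjusted p = 1.61e-15) in saline mice at 3 h and by 2.52 (SE 0.200, 5.74-fold, adjusted p = 5.36e-16) in psilocybin mice at 3 h. At 4 weeks it was higher by 1.92 (SE 0.203, 3.79-fold, adjusted p = 6.77e-12) with saline and by 1.54 (SE 0.210, 2.91-fold, adjusted p = 7.96e-09) with psilocybin, again by edgeR. Nr4a3 was higher in PFC by 1.52 (SE 0.166, 2.86-fold, adjusted p = 1.56e-11) and 1.56 (SE 0.159, 2.96-fold, adjusted p = 1.09e-12) at 3 h, and by 0.80 (SE 0.165, 1.75-fold, adjusted p = 3.44e-05) and 1.04 (SE 0.171, 2.05-fold, adjusted p = 5.15e-07) at 4 weeks, with saline named first and edgeR used throughout. Regional differences were the rule among all genes, since 54.9% (saline, 3 h), 55.2% (saline, 4 weeks), 56.2% (psilocybin, 3 h) and 58.0% (psilocybin, 4 weeks) of genes were called.

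Each mouse gave both tissues, which allows the same comparison within animals. Nr4a1 and Nr4a3 were higher in PFC in 7 of 7 saline mice at 3 h, 8 of 8 saline mice at 4 weeks, 8 of 8 psilocybin mice at 3 h and 7 of 7 psilocybin mice at 4 weeks. The two-sided exact sign-flip permutation test gave p = 0.0156 with 7 mice and 0.00781 with 8, the smallest values these numbers allow, or 0.0234 after adjustment over the 12 such tests. For Nr4a2 the PFC was higher in 3 of 7, 4 of 8, 4 of 8 and 3 of 7 mice in that order. Its log2 differences between the regions were -0.13 (95% interval -0.78 to 0.52), 0.0412 (-0.58 to 0.66), 0.0938 (-0.52 to 0.71) and 0.15 (-0.50 to 0.80), with edgeR adjusted p of 0.756, 0.922, 0.818 and 0.714. Nr4a2 was therefore not called in any of the 4 region comparisons, and these intervals leave room for a difference in either direction.

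**Figure D2:**
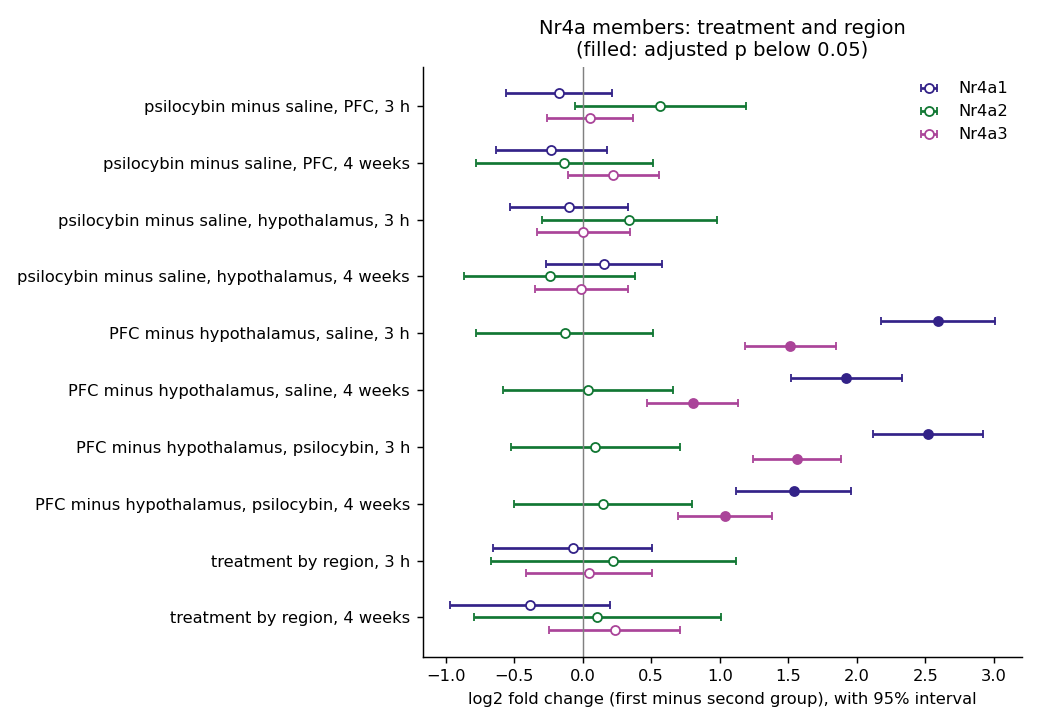
Log2 fold changes of the 3 genes with 95% intervals for psilocybin against saline, PFC against hypothalamus and the interaction of treatment and region, filled where the adjusted p was under 0.05. Every treatment and interaction interval includes 0, whereas Nr4a1 (1.54 to 2.59) and Nr4a3 (0.80 to 1.56) were higher in the PFC in all 4 groups.

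The contrast of 3 h with 4 weeks, on which the family was chosen, is given as a description. Nr4a3 was higher at 3 h in PFC by 1.27 on the log2 scale (SE 0.159, 2.41-fold) with saline and by 1.10 (SE 0.164, 2.14-fold) with psilocybin, and in hypothalamus by 0.56 (SE 0.172) and 0.57 (SE 0.167). Compared within cages, which held a mouse of each group, the 3 h mouse had more Nr4a3 in 8 of 8 and 7 of 7 cages in PFC and in 6 of 7 and 7 of 8 in hypothalamus. Nr4a1 was higher at 3 h in PFC by 0.89 (SE 0.194) with saline, in 7 of 8 cages, and by 0.95 (SE 0.202) with psilocybin, in 7 of 7 cages. In the hypothalamus its differences were 0.22 (SE 0.216), with 5 of 7 cages higher at 3 h, and -0.0351 (SE 0.208), with 5 of 8. For both genes the PFC values were larger than the hypothalamic ones, and whether region or treatment changed the time difference was not tested. Nr4a2 gave -0.24 (SE 0.311) and 0.45 (SE 0.321) in PFC and -0.0727 (SE 0.321) and 0.51 (SE 0.310) in hypothalamus, saline first. Cages with more Nr4a2 at 3 h were 5 of 8 and 5 of 7 in PFC and 5 of 7 and 7 of 8 in hypothalamus. The saline PFC value of Nr4a2 rested on replicate 6 at 4 weeks and turned to 0.13 without that library. With psilocybin, leaving out PFC replicate 6 at 4 weeks raised the value to 0.83.

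Other immediate early genes were set beside the family in the same contrast. Of 32 listed genes, 15 were higher and 0 lower at 3 h in saline PFC (median log2 fold change 0.54), 18 and 0 in psilocybin PFC (0.71), 5 and 0 in saline hypothalamus (0.26) and 4 and 0 in psilocybin hypothalamus (0.20). Over all genes, with medians between -0.0295 and 0.00796, the shares called were 4.72%, 5.96%, 0.685% and 1.16%, and nothing is drawn from these counts since the contrast chose the family. In PFC the 3 smallest p-values included those of Egr2, an activity-induced zinc finger factor, at 2.44 (SE 0.298, edgeR adjusted p = 1.45e-07) with saline and 2.33 (SE 0.309, adjusted p = 2.08e-06) with psilocybin and Dusp4, a phosphatase of MAP kinases, at 1.14 and 1.07. In the hypothalamus they included those of Sgk1, a kinase induced by glucocorticoids, at 1.16 and 1.06, and Fosl2, a Fos family factor, at 0.70 and 0.71.

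**Figure D3:**
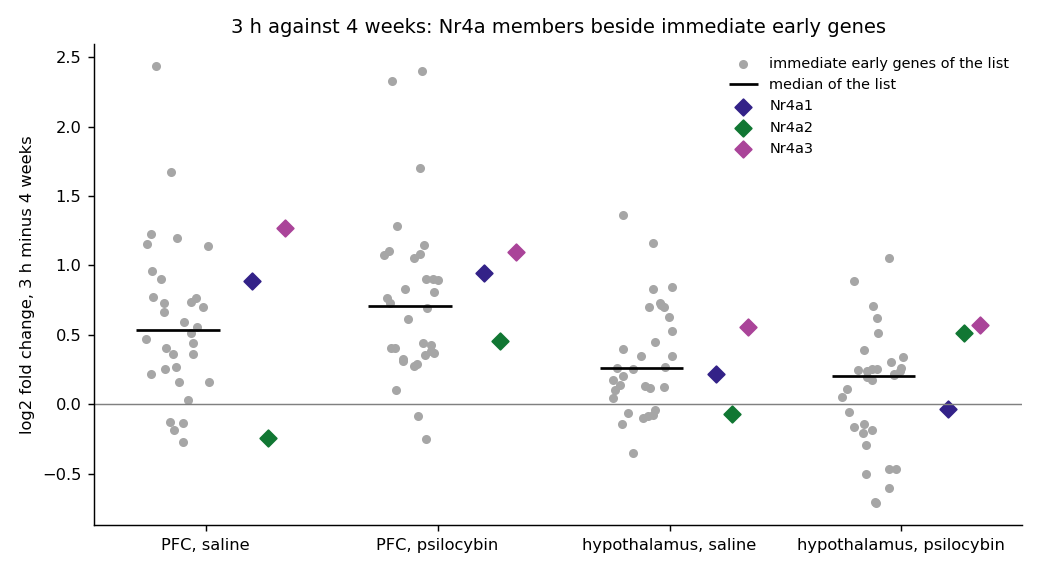
Log2 fold change from 4 weeks to 3 h (positive is higher at 3 h) in the 4 combinations of region and treatment for 32 immediate early genes (grey points, bar at their median) and the Nr4a genes (diamonds). The values in PFC are 1.27 and 1.10 for Nr4a3 and 0.89 and 0.95 for Nr4a1, with list medians of 0.54 and 0.71, and the choice of the family on this contrast means that no support is drawn from its position.

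Genes that act with or around the receptors were counted in the same contrast. Of 26 genes of the cAMP and CREB pathway, the kinase gene Sik1 was called in saline PFC (0.56, edgeR adjusted p = 0.0297) and Sik1 (0.81) and Srf, encoding serum response factor (0.47), in psilocybin PFC, all higher at 3 h, and 0 were called in hypothalamus. Of 12 dimer partners and corepressors, Rxra, a retinoid X receptor that pairs with Nr4a1 and Nr4a2, was called in psilocybin PFC (0.38, edgeR adjusted p = 0.00768). Of 12 genes with described dependence on Nr4a factors, Bdnf, a neurotrophin, was called in psilocybin PFC (0.37), saline hypothalamus (0.40) and psilocybin hypothalamus (0.51). Of 17 other orphan nuclear receptors, Nr2f2 (0.51) and Nr1d1 (0.24) were higher and Nr2c1 (-0.32) lower at 3 h in psilocybin PFC, and 0 were called elsewhere. Beside these counts, edgeR called 4.72% of all genes in saline PFC and 5.96% in psilocybin PFC. In saline and psilocybin hypothalamus the shares were 0.685% and 1.16%. Nothing particular to a list is drawn from its count.

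Between treatments, 0 genes of these 5 lists were called by edgeR or by DESeq2 in any of the 4 comparisons. At an unadjusted p under 0.05 there were 1 of 32 immediate early genes, 0 of 26 pathway genes, 0 of 12 partners, 3 of 12 dependent genes and 2 of 17 orphan receptors in PFC at 3 h, and 4, 2, 0, 0 and 3 at 4 weeks. The counts in hypothalamus were 1, 0, 0, 0 and 0 at 3 h and 4, 0, 1, 1 and 2 at 4 weeks. Over all genes the shares under that p were 7.23% and 2.40% in PFC and 1.78% and 9.61% in hypothalamus, and nothing particular to a list is drawn from its count. Voom called 1, 4, 1, 2 and 1 genes higher after psilocybin in PFC at 3 h and 0 lower, beside 6.49% of all genes called by voom in that comparison, 79.1% of them higher. The dependent genes with the smallest p-values in PFC at 3 h were Crh, encoding corticotropin-releasing hormone, at 0.51 (SE 0.189, edgeR adjusted p = 0.587), Slc18a2, the vesicular monoamine transporter, at 0.61 (SE 0.259, adjusted p = 0.647), and Bdnf at 0.18 (SE 0.0864, adjusted p = 0.681). The median log2 fold change of the immediate early genes was 0.0117 and -0.12 in PFC and -0.0346 and 0.12 in hypothalamus at 3 h and 4 weeks.

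Between regions, more immediate early genes were higher than lower in PFC: 22 higher and 3 lower of 32 in saline mice at 3 h, 20 and 2 at 4 weeks, and 22 and 2 and 16 and 6 in psilocybin mice. Over all genes the calls were split into 5515 higher and 4901 lower (54.9%), 5592 and 4876 (55.2%), 5587 and 5083 (56.2%) and 5432 and 5569 (58.0%), with the groups in the order saline 3 h, saline 4 weeks, psilocybin 3 h, psilocybin 4 weeks. Nothing particular to a list is drawn from its count. The pathway list gave 9 to 12 higher and 5 to 8 lower of 26, led by Camk2a, a calcium-dependent kinase of forebrain neurons (3.36 in saline mice at 3 h, edgeR adjusted p = 2.58e-33). The partners gave 4 to 7 higher and 4 lower of 12. Of the 12 dependent genes, 8 were lower in PFC in each group and 3 or 4 higher, with Ddc (-4.07), Slc18a2 (-4.03) and the receptor gene Ret (-4.10), genes expressed in monoamine neurons, having the smallest p-values at 3 h in saline mice. The orphan receptors gave 4 or 5 higher and 6 to 8 lower of 17, among them Nr2f2 at -2.06.

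Variation of the members between mice of 1 group was examined in log2 CPM centred on the group mean. Of 12 relations, p-values come from 100000 permutations within groups, two-sided, with Benjamini-Hochberg adjustment over the 12. Nr4a1 in the hypothalamus and in the PFC of the same mouse varied together (r = 0.73, adjusted p = 0.000480, rho = 0.68, adjusted p = 0.00144, n = 30 mice, r = 0.58 without the 2 mice farthest from the median). Among mice of cages 1 to 4 the value was 0.92 (n = 14, permutation p = 8e-05) and among those of cages 5 to 8 it was 0.30 (n = 16, permutation p = 0.124), so that the relation did not pass in the latter. For Nr4a2 (r = 0.19, adjusted p = 0.537) and Nr4a3 (r = 0.14, adjusted p = 0.639) the regions of a mouse were not related by this test.

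**Figure D4:**
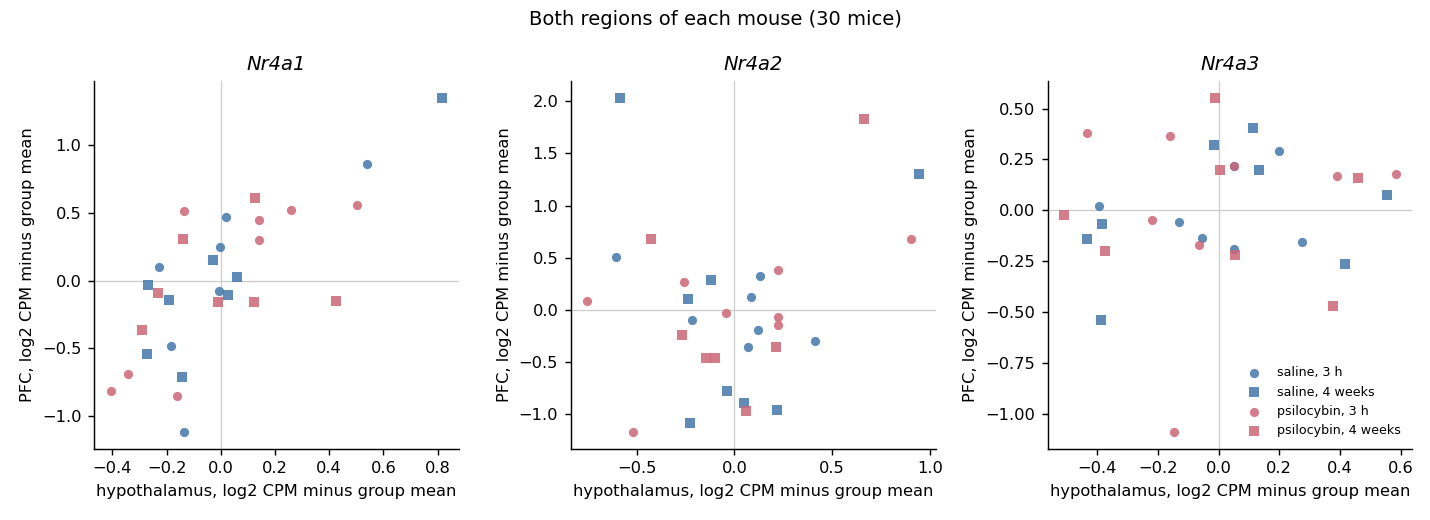
Group-centred log2 CPM in the PFC against that in the hypothalamus of the same mouse for each Nr4a gene, 30 mice. The Nr4a1 points follow a rising slope with exceptions (r = 0.73), and Nr4a2 (r = 0.19) and Nr4a3 (r = 0.14) scatter without a clear slope.

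Libraries of cage 3 at 4 weeks stood out for Nr4a1, which was highest in replicate 3 of saline PFC (107.8 CPM, next 46.8), saline hypothalamus (21.2 CPM, next 12.3) and psilocybin hypothalamus (26.7 CPM, next 15.4). Both saline libraries were from the same mouse. The fourth library of the cage had been left out for its depth. These 3 libraries were highest for 23, 10 and 15 and lowest for 0, 3 and 1 of the 32 immediate early genes. Over all genes they were highest for 12.1%, 14.4% and 8.29% and lowest for 10.4%, 20.6% and 8.32%. Their median ratio to the median of the other libraries over the list was 1.61, 1.08 and 1.21. In saline hypothalamus the library was lowest for Jun, Jund and Homer1. Fos was at 21.6, 17.8 and 34.0 CPM in them and at most 18.5, 9.64 and 8.17 CPM in the other libraries of these groups, and Egr1 at 198, 40.6 and 63.1 CPM against at most 155, 25.4 and 35.1 CPM. Arc, an effector gene at synapses, was high in the PFC library (249.8 CPM, others 19.6 to 99.6) and within the others' range in the hypothalamus. The hypothalamic libraries of cage 3 also had the highest sums of choroid plexus markers in their groups, 1230 CPM with saline (others at most 96.0) and 239 CPM with psilocybin (others at most 92.5), with all 5 markers detected, while the PFC library had 16.8 CPM (others 5.63 to 57.1). The part of choroid plexus in the Nr4a1 values was not tested. Without these 3 libraries the time difference of Nr4a1 was 1.12 in saline PFC, 0.32 in saline hypothalamus and 0.15 in psilocybin hypothalamus, where its sign had been negative, and the treatment differences at 4 weeks were -0.00853 in PFC and 0.0949 in hypothalamus. That alternative was chosen after these values had been seen.

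Within a region, some members were related to each other. Nr4a1 and Nr4a3 varied together in PFC (r = 0.47, adjusted p = 0.0142, rho = 0.44, adjusted p = 0.0355, n = 31, 0.43 without the 2 farthest), though not within cages 1 to 4 (0.34, permutation p = 0.349) or 5 to 8 (0.35, permutation p = 0.300) alone. Their hypothalamic value was -0.0173. Nr4a2 and Nr4a3 varied together in hypothalamus (r = 0.62, adjusted p = 0.00144, rho = 0.66, n = 31, 0.52 without the 2 farthest), with 0.43 (permutation p = 0.155) and 0.80 (permutation p = 0.0035) in the respective sets of cages, and had r = -0.0295 (adjusted p = 0.933) in PFC. Nr4a1 and Nr4a2 had r = -0.35 in PFC (adjusted p = 0.0862) and 0.12 in hypothalamus.

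Nr4a2 in PFC moved with markers of other neurons. It varied with the summed markers of claustral and layer 6b neurons, in which it is a known marker (r = 0.74, adjusted p = 0.000480, rho = 0.68, n = 31, 0.71 without the 2 farthest). It also varied with the summed markers of striatal neurons (r = 0.76, adjusted p = 0.000480, rho = 0.61, 0.58 without the 2 farthest), a relation added after the genes most like Nr4a2 had been seen. Within cages 1 to 4 and 5 to 8 the claustral value was 0.47 (permutation p = 0.0818) and 0.55 (permutation p = 0.0615), and the striatal one -0.12 (permutation p = 0.896) and 0.67 (permutation p = 0.0174). All 7 claustral and all 8 striatal markers were detected in every group, with sums of 88.9 to 196 and 119 to 1215 CPM in PFC. The libraries with the highest Nr4a2 also had high striatal sums, 1215 and 493.3 CPM in saline replicates 6 and 7 and 518 CPM in psilocybin replicate 6 at 4 weeks. Nr4a1 in PFC varied against the striatal sum (r = -0.56, adjusted p = 0.00487, rho = -0.44, n = 31, -0.53 without the 2 farthest), with -0.11 (permutation p = 0.418) and -0.61 (permutation p = 0.0211) in the sets of cages.

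With the striatal sum as a covariate in the PFC libraries, the treatment difference of Nr4a2 was 0.43 at 3 h and 0.13 at 4 weeks, where it had been 0.57 and -0.13, and its time difference was 0.14 in saline and 0.44 in psilocybin mice. Under the same covariate the time differences of Nr4a1 were 0.81 and 1.00 and those of Nr4a3 1.24 and 1.13, close to the values without it.

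**Figure D5:**
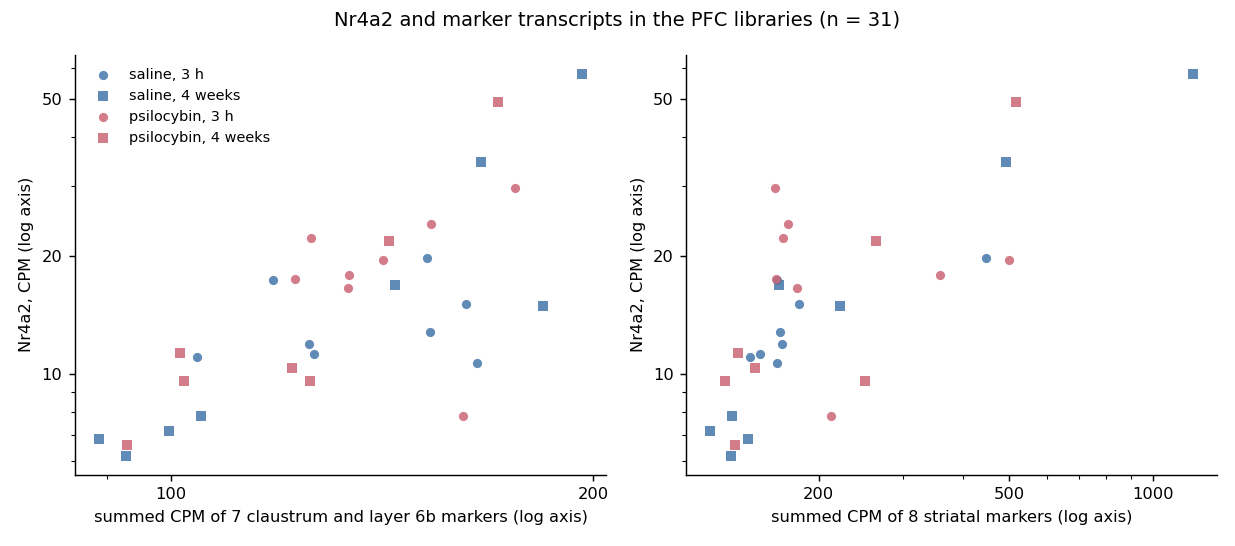
Nr4a2 (CPM, log axis) against the summed CPM of claustral and layer 6b markers and of striatal markers (log axes) in 31 PFC libraries. The libraries with the highest Nr4a2, 58.0 and 49.1 CPM, have striatal sums of 1215 and 518 CPM.

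The genes whose levels most resembled each member were ranked by Pearson's r of log2 CPM over the 31 libraries of a region, among 18970 other genes, with groups, times and cages all contributing. Nr4a1 in PFC was most like Arc (0.93), Trib1 (0.91), Dusp1 (0.90), Dusp5 (0.89) and Fos (0.88), and in hypothalamus most like Egr1 (0.76), Fos (0.73), Dusp1 (0.72), Tm6sf2 (0.71) and Gm27353 (0.66). Nr4a3 in PFC was most like Egr2 (0.93), the period gene Per2 (0.90), Dusp4 (0.89), Egr1 (0.89) and the clock repressor gene Bhlhe40 (0.88). In the hypothalamus Nr4a3 was instead nearest to AC113961.1 (0.81), Retreg3 (0.80), Fzd1 (0.78), Cdr2 (0.78) and Tsc22d3 (0.76). Nr4a2 in PFC was near Gnb4 (0.83), Dner (0.80), Bcl11b (0.79), a known marker of striatal projection neurons, and Ankrd63 (0.78). In the hypothalamus it was nearest to Nwd2 (0.80), Vav2 (0.80), Tspan18 (0.80), Cytip (0.76) and Chrnb3 (0.75). Of the genes named here, Dusp1 and Fos were near Nr4a1 in both regions.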

How the data were processed

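RNA was sequenced from the hypothalamus and PFC of 32 mice (64 samples). Per the study's methods and the submitters' processing notes, reads were demultiplexed with bcl2fastq 2.20.0, aligned to GRCm38 with STAR 2.7.2b and assigned to genes with featureCounts 1.6.2, and the authors deposited whole-number counts per gene together with gene lengths, without normalization. The libraries were made with a stranded kit, and the authors counted pairs with both mates on 1 strand.

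Libraries under 1000000 counted reads were left out (2 of 64). Symbols matched 55141 of 55401 gene identifiers. After the low-count filter of edgeR (filterByExpr, count of 10 or more in enough libraries for the smallest group) 18971 genes remained. TMM scaling and a robust quasi-likelihood fit in edgeR 4.0.16 (R 4.3.3) used group and extraction pool, with all groups in 1 fit, and genes with a Benjamini-Hochberg adjusted p under 0.05 were called. Levels are TMM-scaled CPM, and CPM per kilobase uses the deposited length. Limma 3.58.1 (voom with quality weights and the animal as a block, as in the study's methods, although the study also left out a sample enriched in wound healing and immune genes, which it does not name and which was not removed here) and DESeq2 1.42.0 were alternatives, beside other scaling, filters, sample sets and covariates. Permutation tests, correlations and figures used Python 3.11.15 with scipy 1.17.1, pandas 2.3.3 and matplotlib 3.10.9, with log2(CPM + 0.5) for correlations. The fits were tested on simulated data. Replicates are separate mice, so p-values measure the spread between mice, and no pair of libraries of 1 group agreed within sampling noise (210 pairs, smallest chi-square per degree of freedom 3.85).

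Samples that share a number come from 1 cage and, inside either region, from separate animals. Their deviations from the group means correlated at 0.109 on average in PFC and 0.0869 in hypothalamus (other cages -0.0147 and -0.00976), with pairs as low as -0.420 and -0.226. The labels give the cage as a shared number, so a fit with the cage as a block was run beside the fit without it. Hypothalamus and PFC samples of 1 number, treatment and time came from 1 mouse.

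The members, the gene lists and the marker lists were chosen with earlier results of these data known. Genes named in the text are the members, the genes with the smallest p in each list and comparison (3 at most, fewer where counts were near 0), genes of a list that were called where 5 or fewer were, and the 5 genes most correlated with each member in each region, of which 1 is not reported here. Genes named for the cage 3 libraries were chosen after their values had been seen. Promoter windows and start sites are from RefSeq (GRCm38.p6), and protein sequences were not used here.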

Additional observations from a re-analysis of the deposited data

Results flagged for a closer look

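Across the 24 sets formed by 3 genes and 8 groups, 7 had 1 library farther from the others than Dixon's 95% limit allows. That limit assumes independent, normally distributed values. The CPM values were not log-transformed and the sets share libraries and mice, so no rate expected by chance is given. For Nr4a1 the flagged libraries were the highest of 4 groups. Saline PFC replicate 3 at 4 weeks had 107.8 CPM and the next library 46.8 CPM. Saline hypothalamus replicate 3 at 4 weeks had 21.2 CPM (next 12.3) and psilocybin hypothalamus replicate 3 at 4 weeks 26.7 CPM (next 15.4), so that 3 of the 4 belonged to cage 3. The other was saline hypothalamus replicate 1 at 3 h, with 19.9 CPM (next 13.7). Within cage 3, both saline libraries were from the same mouse.

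For Nr4a2 the libraries were psilocybin PFC replicate 6 at 4 weeks with 49.1 CPM (next 21.8), psilocybin hypothalamus replicate 8 at 3 h with 34.0 CPM (next 21.0) and saline hypothalamus replicate 7 at 4 weeks with 29.4 CPM (next 17.6). Nr4a3 had no such library in any of the 8 groups. No cause was tested.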

How the results depend on the processing

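No member was called between treatments or for the interaction under any of the alternatives run, and Nr4a1 and Nr4a3 were called higher in PFC under each of them, Nr4a2 under none. Of 882 recomputed fold changes of the members in these comparisons, 840 kept their direction and call, and 42 uncalled values, 29 of them with 1 library left out, changed sign. Depth limits low levels most (51 to 234 reads on Nr4a3 in psilocybin hypothalamus at 4 weeks). The cause of the changes below was not tested.

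The sign of Nr4a2 between treatments in PFC at 4 weeks turned to 0.17 with voom and to 0.13 with the striatal covariate. Nr4a3 between treatments in hypothalamus at 3 h turned to -0.0770 with voom and -0.0352 with the cage block. Nr4a2 between regions in saline mice at 4 weeks turned to -0.00661 with size factors, -0.0178 without a filter, -0.0117 with DESeq2, -0.19 with voom, -0.0301 with the cage block, -0.0990 in a fit of these groups alone and -0.12 within mice. In psilocybin mice it was -0.0190 at 3 h in a fit of these groups alone and -0.0255 at 4 weeks with the cage block. The time difference of Nr4a2 was 0.14 in saline PFC with the striatal covariate and 0.0383 in saline hypothalamus with voom. That of Nr4a1 in psilocybin hypothalamus was 0.0299 without a filter, 0.0475 with voom, 0.00795 with the cage block and 0.15 without cage 3.

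Leaving out 1 library at a time, the time difference of Nr4a1 in psilocybin hypothalamus ranged from -0.12 to 0.14, and that of Nr4a2 from -0.36 to 0.13 in saline PFC from -0.15 to 0.13 in saline hypothalamus, from 0.33 to 0.83 in psilocybin PFC and from 0.32 to 0.63 in psilocybin hypothalamus. Treatment differences ranged from -0.55 to 0.28 for Nr4a2 in PFC at 4 weeks, from -0.0157 to 0.26 for Nr4a1 in hypothalamus at 4 weeks and -0.15 to -0.0326 at 3 h, and for Nr4a3 in hypothalamus from -0.0919 to 0.0642 at 3 h and -0.0813 to 0.0815 at 4 weeks. Region differences of Nr4a2 ranged from -0.34 to 0.24 (saline, 4 weeks), -0.0359 to 0.28 (psilocybin, 3 h) and -0.24 to 0.27 (psilocybin, 4 weeks). Interactions ranged from -0.24 to 0.0182 for Nr4a1, 0.0904 to 0.41 for Nr4a2 and -0.0115 to 0.15 for Nr4a3 at 3 h and, at 4 weeks, from -0.49 to -0.17 for Nr4a1, -0.31 to 0.52 for Nr4a2 and 0.14 to 0.30 for Nr4a3.

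Counts of genes called moved more. Between treatments in PFC at 3 h, 2 genes became 9 with DESeq2, 1232 with voom, 1 without a filter, without the pool and with all 64 libraries, 0 with these groups alone and with the striatal covariate, and 1 to 11 with 1 library left out. In PFC at 4 weeks, 0 became 19 with DESeq2, 1 without the pool and 3 with all 64 libraries. DESeq2 called 13 in hypothalamus at 4 weeks and 64 for the interaction at 4 weeks, and voom 8 for that at 3 h. For time, 896 in saline PFC became 425 without a filter, 521 with all 64 libraries, 310 with these groups alone and 480 to 1571 with 1 library left out. In psilocybin PFC 1131 became 552, 3614 with voom, 666 without the pool and 706 to 2143. In saline hypothalamus 130 became 60 without a filter, 1375 with voom, 53 with all 64 libraries, 661 with these groups alone and 67 to 225. In psilocybin hypothalamus 220 became 448 with DESeq2, 624 with voom, 96 with all 64 libraries, 31 with these groups alone and 131 to 368. Of the time calls in saline and psilocybin hypothalamus, 76.2% and 64.1% were higher at 3 h, against 64.7% and 47.5% with DESeq2, 85% and 90.9% without a filter, 60.4% and 83.9% with these groups alone and 61.6% and 65.1% with voom.

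The replicate block, with the cage in place of the pool, moved no count by more than 1.5 times and changed no call of a member. The Nr4a2 difference in PFC at 3 h was then 0.56 (edgeR adjusted p = 0.741). The fits without cage 3 and with the striatal covariate were chosen after seeing the data.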
